A study of Homo sapiens with 9 samples.

Results

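The mitochondrial ribosomal proteins were described at the level of their mRNAs in MDA-MB-231 cells treated with the copper chelator TEPA. Members were taken by name, as every row of the count table called MRPL or MRPS followed by a number and at most 1 further letter, which gave 78 of the 59453 gene names. MDA-MB-231 is an established human triple-negative breast cancer line with a mesenchymal form. RNA-Seq was performed on 3 groups of 3 libraries, which were untreated cells, cells treated with TEPA for 8 h and cells treated with TEPA for 24 h. The labels give TEPA at 8 mM for this line, while the study's text on its RNA sequencing gives a lower concentration, and the labels name no vehicle and no other agent. The same 3 untreated libraries served both time points, so the comparisons at 8 h and 24 h share their controls. The labels give no time for the untreated cells, so an effect of TEPA cannot be told apart from one of the hours in culture. Nothing in the labels says that the replicates were separate cultures, so the p-values measure the spread between these libraries, which may be technical.

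Mitochondrial ribosomes translate the few mRNAs that are transcribed from mitochondrial DNA, all of which encode core subunits of the respiratory chain and the ATP synthase. Their rRNAs are made inside the organelle, but every one of their proteins is encoded in the nucleus, made in the cytosol and imported, so an intact particle depends on the output of many dispersed nuclear genes. Part of these proteins have counterparts in bacterial ribosomes, and the others were added during the evolution of mitochondria. The names do not always follow the subunit: MRPS18A and MRPS30 sit in the large subunit, and the product of MRPS36 is now counted as part of the 2-oxoglutarate dehydrogenase complex rather than of the ribosome.

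Total counts ran from 34633755 to 49342659 per library. Of the 78 members, 77 passed the filter on low counts, and MRPL53 did not. The markers fixed for the line were as its label has it: VIM lay between 3242 and 4435 CPM (counts divided by library size, on a scale common to all libraries) and CD44 between 793 and 1105 CPM, KRT18 was between 246 and 308 CPM, while ESR1 had at most 9 counts, PGR 0 counts and PTPRC at most 5 counts in any library. The untreated replicate 1 stood somewhat apart, with a member median 0.055 below the mean of the untreated libraries on the log2 scale, against 0.030 and 0.018 above it in the other two. All levels given here are CPM after TMM scaling, that is, shares of a library, so that a lower level of an mRNA and a larger amount of all other RNA per cell cannot be told apart. A gene is said to rise, fall or change only where edgeR's quasi-likelihood test gave an adjusted p under 0.05 after Benjamini-Hochberg adjustment over all 16556 genes tested.

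After 8 h of TEPA, the mitoribosomal mRNAs moved in both directions and by small amounts. Of the 77 members tested, 13 rose (16.9%, against 25.2% of all genes tested) and 19 fell (24.7%, against 24.5%). After 24 h, falls prevailed: 35 members were lower than in untreated cells (45.5%, against 26.8% of all genes) and 12 were higher (15.6%, against 25.7%). Among the members the median log2 fold change was 0.0035 after 8 h and -0.081 after 24 h. The corresponding medians over all genes tested were -0.0013 and 0.0023. Under other settings and without single libraries, the median at 8 h took either sign, from -0.013 to 0.018, and the median at 24 h ran from -0.113, without untreated replicate 1, to -0.054. Without untreated replicate 1, 11 members rose and 22 fell at 8 h, and 10 rose and 37 fell at 24 h. At 24 h, 52 of the 77 members had a log2 fold change below 0, compared with 38 at 8 h.

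Compared directly, 24 h against 8 h, 37 members fell (48.1%, against 28.8% of all genes) and 13 rose (16.9%, against 26.0%), with a median log2 fold change of -0.119 for the members and -0.016 for all genes. Few of these changes were large. With a log2 fold change beyond 0.5 asked for as well, 2 members rose and 0 fell at 8 h, where 10.1% and 7.67% of all genes did so. At 24 h by the same rule 0 members rose (10.2% of all genes) and 8 fell (8.46%), and from 8 h to 24 h 0 rose (10.4%) and 10 fell (10.8%). The members' log2 fold changes spanned -0.34 to 0.84 at 8 h and -1.26 to 0.48 at 24 h. Standard errors of single members had a median of 0.049, and the smallest change called at 24 h was 0.097. Mitoribosomal mRNAs are in part short, and 1617 other protein-coding genes with a canonical transcript under 1500 bases had median log2 fold changes of -0.077 and -0.044 at the respective times. Of these short genes 35.9% fell at the earlier time and 34.5% at the later. The part of transcript length in the members' values was not tested.

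**Figure D1:**
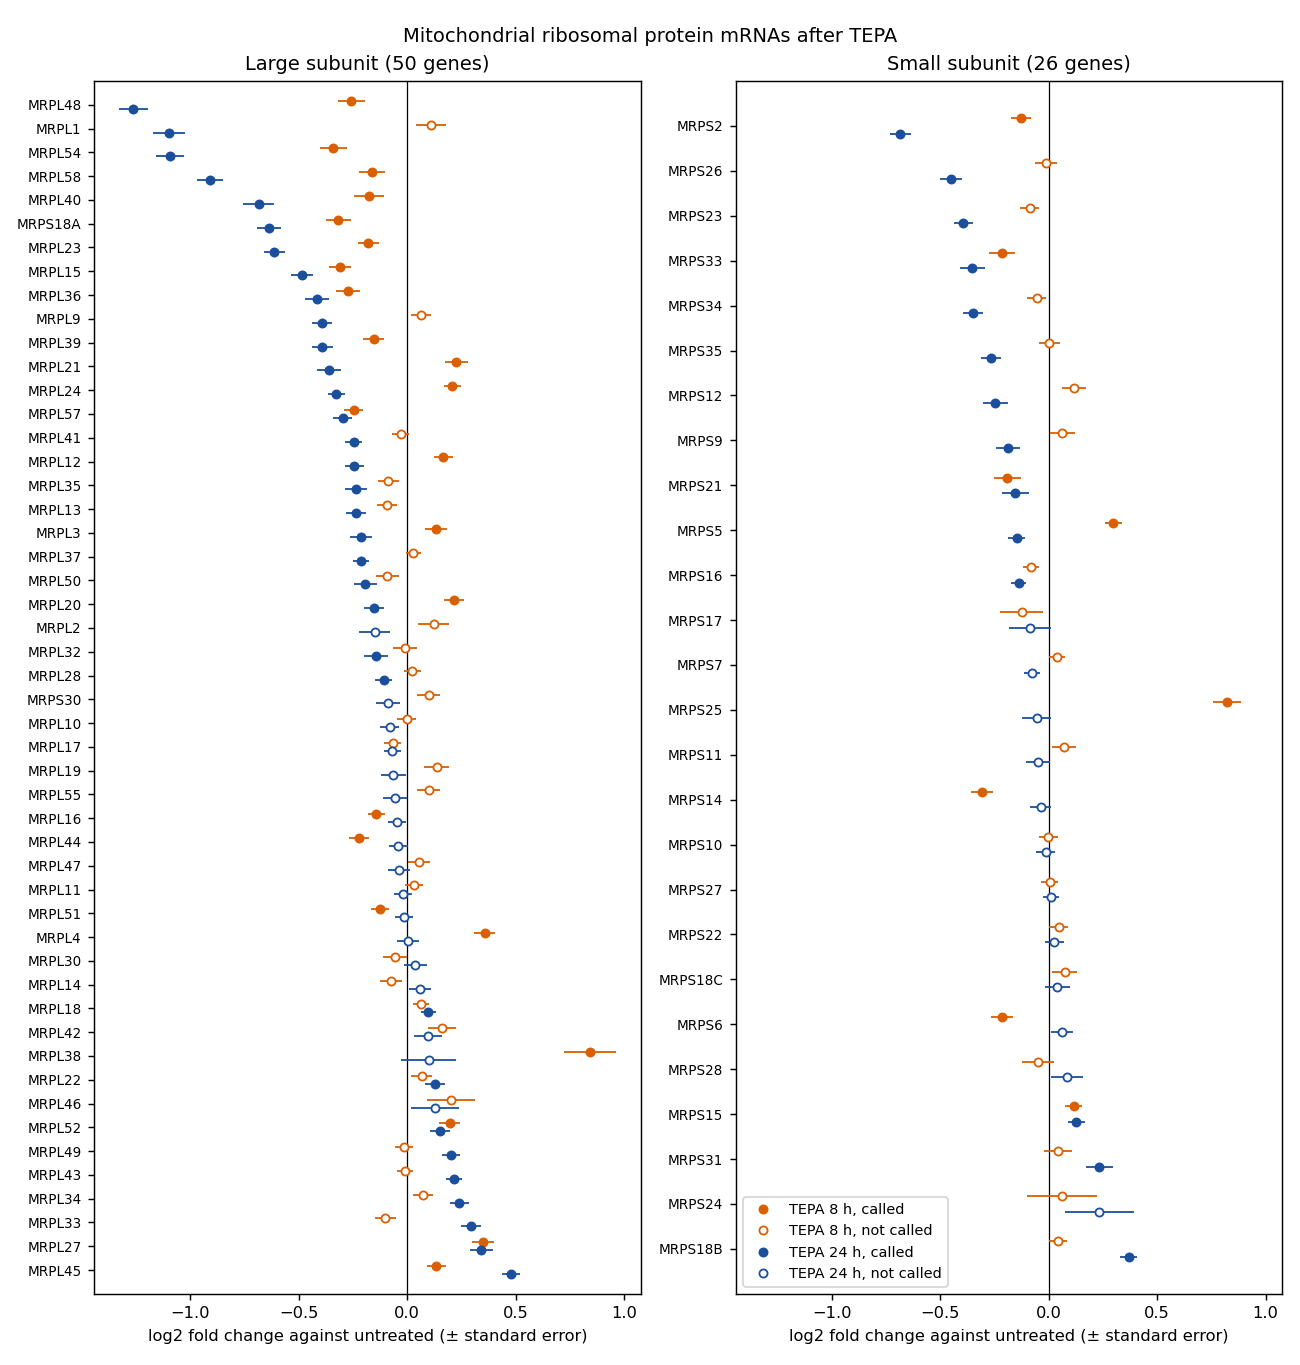
Log2 fold change against untreated cells (horizontal axis, with standard error) of the 50 large subunit and 26 small subunit genes tested, ordered by the value at 24 h; orange, TEPA 8 h, blue, TEPA 24 h, filled where the adjusted p was under 0.05. MRPL48, MRPL1 and MRPL54 lie below -1 at 24 h, while no member reaches 0.5 at that time.

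**Figure D2:**
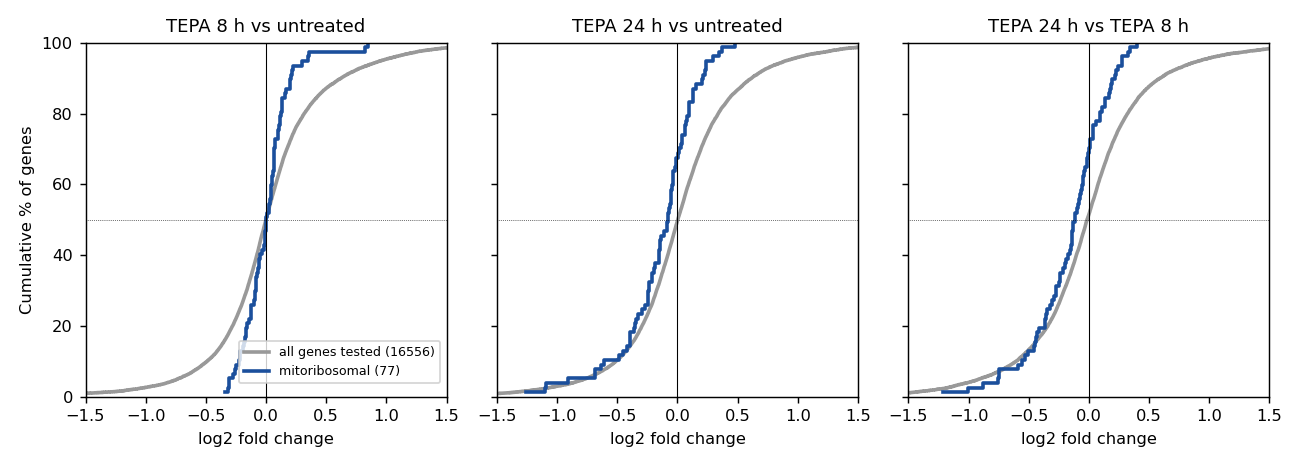
Cumulative percentage of genes (vertical axis) against log2 fold change (horizontal axis) in the 3 comparisons, for the 77 mitoribosomal genes tested (blue) and all 16556 genes tested (grey). At 8 h the members' curve is steeper than that of all genes around the same median, and at 24 h it is moved to the left, with a median of -0.081.

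In a summed view, the members held 4492 ± 141 CPM without TEPA, 4553 ± 16.5 CPM after 8 h and 4121 ± 29.2 CPM after 24 h (mean ± SD of 3 libraries). All 3 libraries at 24 h, from 4090 to 4148 CPM, lay below the untreated ones, whose lowest was untreated replicate 1 at 4331 CPM. The sums at 8 h lay within the untreated range. The ratio of summed large to summed small subunit CPM was 2.06 ± 0.0052 in untreated cells, 2.05 ± 0.018 after 8 h and 2.08 ± 0.0098 after 24 h. Of the 50 large subunit genes tested, 24 fell and 9 rose at 24 h, and of the 26 small subunit genes 11 fell and 3 rose. Of all genes tested, 26.8% fell and 25.7% rose at that time. Proteins named after a bacterial counterpart and proteins named as specific to mitochondria both fell more often than they rose at 24 h. In the large subunit, 14 fell and 5 rose of 30 named after a counterpart, and 10 and 4 of 20 named as specific. In the small subunit these were 6 and 1 of 16, and 5 and 2 of 10. The classes follow the protein names, so MRPS18A and MRPS18B count as specific, though both are relatives of a bacterial protein.

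The deepest fall was that of MRPL48, a protein of the central protuberance, the crown of the large subunit that faces the small subunit. MRPL48 was at 33.4, 32.2 and 33.2 CPM in the untreated libraries, at 27.4, 26.2 and 29.0 CPM after 8 h and at 12.6, 15.1 and 13.5 CPM after 24 h. The 3 groups did not overlap, and the level stepped down at each time. The log2 fold change of MRPL48 was -0.26 (SE 0.062, edgeR adjusted p = 0.0028) at 8 h and -1.26 (SE 0.066, edgeR adjusted p = 5.54e-10) at 24 h, which is 0.417 times the untreated level.

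MRPL1, the counterpart of the bacterial protein that forms the mobile L1 stalk by which a used tRNA leaves the ribosome, followed another course. MRPL1 had 20.1, 23.8 and 22.5 CPM in untreated cells, 25.7, 22.9 and 23.1 CPM after 8 h and 10.7, 9.92 and 10.4 CPM after 24 h. The libraries at 8 h overlapped with the untreated ones, and those at 24 h lay far below both. Its log2 fold change was 0.11 (SE 0.070, edgeR adjusted p = 0.21) at 8 h, -1.10 (SE 0.075, edgeR adjusted p = 8.72e-09) at 24 h and -1.21 (SE 0.074, edgeR adjusted p = 3.66e-09) from 8 h to 24 h, the lowest value of any member in that last comparison.

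MRPL54, a protein found in mitochondria but not in bacteria, fell at both times. Its levels were 32.0, 31.8 and 31.3 CPM untreated, 25.5, 24.6 and 25.1 CPM after 8 h and 13.5, 14.7 and 16.6 CPM after 24 h, with no overlap between any of the groups. The log2 fold change of MRPL54 was -0.34 (SE 0.063, edgeR adjusted p = 0.000345) at 8 h, the lowest of all members at that time, and -1.09 (SE 0.066, edgeR adjusted p = 2.47e-09) at 24 h. MRPL58, also known as ICT1, is a built-in peptidyl-tRNA hydrolase that frees stalled ribosomes. It was measured at 33.4, 38.1 and 36.0 CPM in untreated cells, 32.3, 31.3 and 32.4 CPM after 8 h and 18.0, 20.3 and 19.0 CPM after 24 h. All libraries at 24 h lay below all others, with a log2 fold change of -0.91 (SE 0.061, edgeR adjusted p = 7.95e-09), or 0.532 times the untreated level.

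MRPL40, another protein of the central protuberance, had 22.3, 24.0 and 26.3 CPM untreated, 21.5, 21.4 and 21.3 CPM after 8 h and 13.8, 16.1 and 15.3 CPM after 24 h. MRPS2, a conserved small subunit protein and the most abundant of the strongly falling members by CPM, had 131, 147 and 144 CPM untreated, 131, 128 and 127 CPM after 8 h and 88.2, 91.9 and 82.4 CPM after 24 h. For both genes the libraries at 24 h were the lowest of all, and the log2 fold changes at 24 h were -0.68 (SE 0.072, edgeR adjusted p = 1.04e-06) for MRPL40 and -0.68 (SE 0.048, edgeR adjusted p = 1.4e-08) for MRPS2. MRPL23, which sits at the exit of the peptide tunnel, fell to 36.8 ± 2.19 CPM at 24 h from 56.2 ± 1.57 CPM (mean ± SD of 3 libraries), a log2 fold change of -0.61 (SE 0.049, edgeR adjusted p = 5.65e-08). Milder falls at 24 h were those of MRPS26 and MRPS23 of the small subunit and of MRPL9 and MRPL39 of the large one. Their values on the log2 scale were -0.45 for MRPS26, -0.39 for MRPS23, -0.39 for MRPL9 and -0.39 for MRPL39. These 4 genes were chosen after their values were seen.

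**Figure D3:**
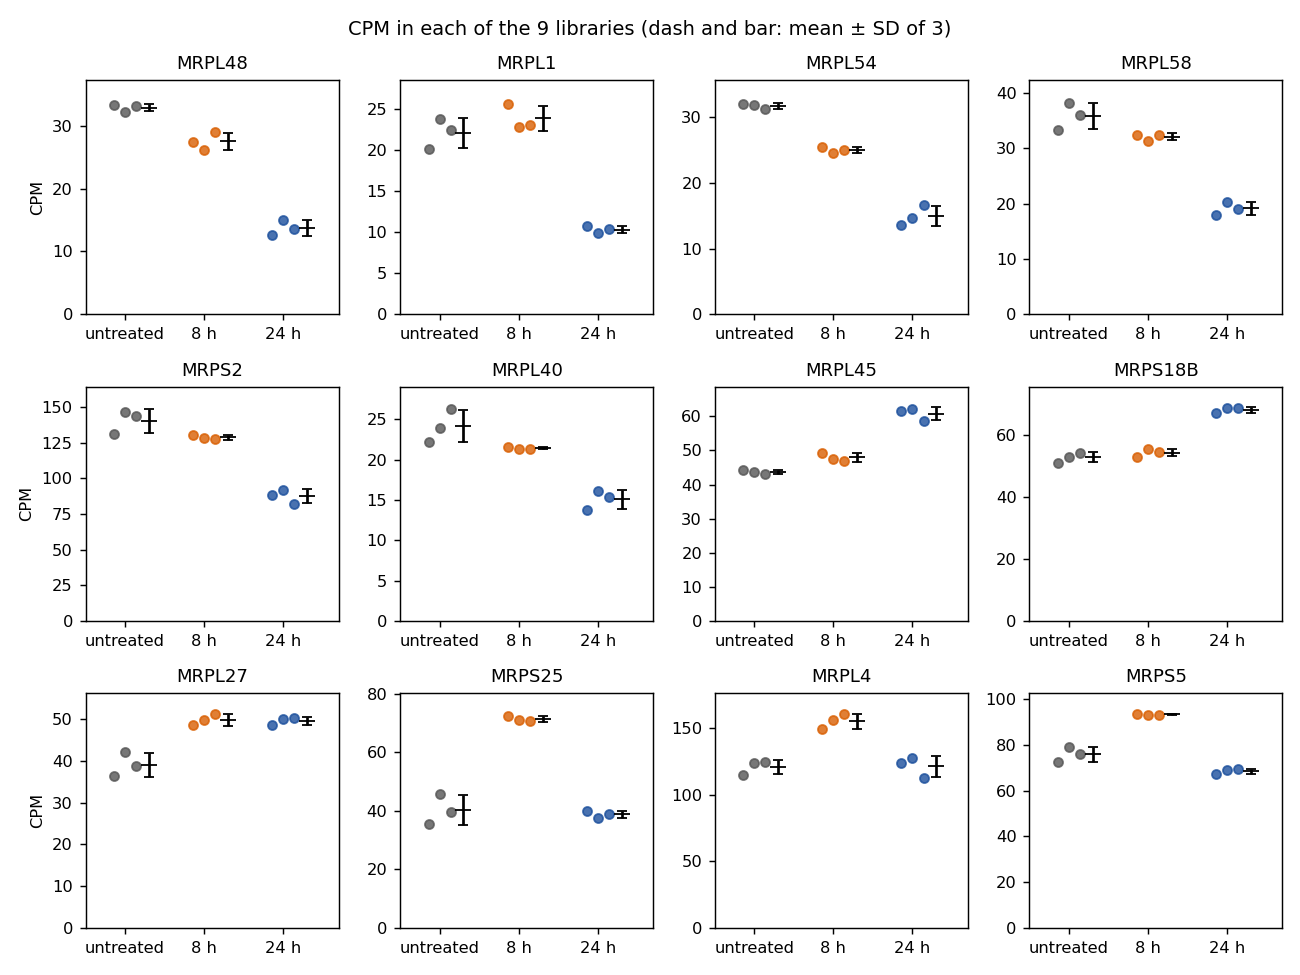
CPM (vertical axis, from 0) of 12 members in each of the 9 libraries, by group (horizontal axis), with dashes and bars for the mean and SD of 3 libraries. MRPL48, MRPL1, MRPL54 and MRPL58 are lowest at 24 h, MRPL45 and MRPS18B are highest there, and MRPS25, MRPL4 and MRPS5 peak at 8 h.

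The members that rose after 24 h were fewer and changed less. MRPL45, the protein that anchors the mitochondrial ribosome to the inner membrane at the tunnel exit, had the highest log2 fold change at this time. MRPL45 was at 44.2, 43.6 and 43.2 CPM in untreated cells, 49.4, 47.6 and 46.8 CPM after 8 h and 61.7, 62.1 and 58.7 CPM after 24 h. The groups did not overlap, and the log2 fold change at 24 h was 0.48 (SE 0.042, edgeR adjusted p = 1.56e-07), or 1.39 times the untreated level. MRPS18B followed, with 51.1, 53.1 and 54.4 CPM untreated, 53.1, 55.6 and 54.6 CPM after 8 h and 67.2, 68.8 and 68.8 CPM after 24 h. Its libraries at 8 h overlapped with the untreated ones, those at 24 h lay above both, and the log2 fold change at 24 h was 0.37 (SE 0.041, edgeR adjusted p = 1.73e-06).

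MRPL27, whose bacterial counterpart reaches into the peptidyl transferase centre, had 36.4, 42.0 and 38.7 CPM untreated, 48.4, 49.8 and 51.2 CPM after 8 h and 48.5, 50.1 and 50.1 CPM after 24 h. It was higher in all 6 treated libraries than in any untreated one, and the treated groups overlapped. Its log2 fold change was 0.35 (SE 0.052, edgeR adjusted p = 4.5e-05) after 8 h and 0.34 (SE 0.052, edgeR adjusted p = 4.39e-05) after 24 h. The difference between the times was -0.0077 (SE 0.051, edgeR adjusted p = 0.911), a 95% interval of -0.11 to 0.092. This interval uses a normal quantile, which makes it somewhat narrow for so few libraries. MRPL33, a small conserved protein of the large subunit, had 31.9, 31.2 and 31.4 CPM untreated, 30.4, 28.7 and 29.0 CPM after 8 h and 39.4, 37.3 and 39.3 CPM after 24 h. Its values at 24 h were above all others, a log2 fold change of 0.30 (SE 0.047, edgeR adjusted p = 7.03e-05) against untreated cells and of 0.40 (SE 0.047, edgeR adjusted p = 3.53e-06) against 8 h, the highest of all members in the latter comparison. MRPL34, MRPS31 and MRPL49 rose by log2 fold changes of 0.24, 0.23 and 0.20 at 24 h (edgeR adjusted p = 0.000281, 0.00522 and 0.00064).

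At 8 h the clearest rise was in MRPS25, a small subunit protein without a bacterial counterpart. MRPS25 was at 35.6, 45.7 and 39.7 CPM in untreated cells, at 72.4, 71.2 and 70.7 CPM after 8 h and at 40.0, 37.6 and 39.0 CPM after 24 h. All libraries at 8 h were above all others, and those at 24 h overlapped with the untreated ones. The log2 fold change was 0.82 (SE 0.066, edgeR adjusted p = 1.04e-07) at 8 h, -0.88 (SE 0.066, edgeR adjusted p = 2.71e-08) from 8 h to 24 h, and -0.055 (SE 0.067, edgeR adjusted p = 0.516) between 24 h and untreated cells. Without untreated replicate 1 the last value was -0.14, with an edgeR adjusted p of 0.0453, and without untreated replicate 2 it was 0.045. MRPL4, which lines the peptide tunnel in bacterial ribosomes, was likewise highest at 8 h, with 115, 124 and 125 CPM untreated, 149.7, 156 and 161 CPM after 8 h and 124, 128 and 113 CPM after 24 h. Its log2 fold change was 0.36 (SE 0.049, edgeR adjusted p = 2.06e-05) at 8 h and 0.0031 (SE 0.049, edgeR adjusted p = 0.963) at 24 h. MRPL38 had the highest log2 fold change of all members at 8 h, 0.84 (SE 0.12, edgeR adjusted p = 2.98e-05) but on few counts. They were 127, 169 and 102 counts untreated, 236, 223 and 209 at 8 h and 171, 153 and 126 at 24 h.

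Among the members that fell at 8 h, the courses to 24 h differed. MRPS14, a conserved protein of the small subunit head, had 30.4, 30.0 and 30.5 CPM untreated, 25.2, 24.0 and 24.2 CPM after 8 h and 29.4, 30.4 and 28.9 CPM after 24 h. Its libraries at 8 h lay below both other groups, which overlapped, and the log2 fold changes were -0.31 (SE 0.049, edgeR adjusted p = 9.22e-05) at 8 h and -0.036 (SE 0.048, edgeR adjusted p = 0.554) at 24 h. MRPS6 took a like course, with 37.4, 33.7 and 35.8 CPM untreated, 31.2, 31.2 and 29.5 CPM after 8 h and 37.5, 36.3 and 37.7 CPM after 24 h, and log2 fold changes of -0.22 (SE 0.051, edgeR adjusted p = 0.00243) and 0.062 (SE 0.050, edgeR adjusted p = 0.322). By contrast, MRPL15, MRPL36 and MRPS18A were lower at 8 h and at 24 h. MRPL15 had log2 fold changes of -0.31 and -0.49 (edgeR adjusted p = 9.92e-05 and 8.39e-07), and MRPL36 had -0.27 and -0.42 (edgeR adjusted p = 0.000688 and 1.1e-05).

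For 6 members the call turned, from a rise at 8 h to a fall at 24 h: MRPL3, MRPL12, MRPL20, MRPL21, MRPL24 and MRPS5. They were 7.79% of the members tested, where 3.45% of all genes tested had this pair of calls, and both calls rest on the same untreated libraries. MRPL24, a protein of the tunnel exit region, had 85.9, 90.7 and 89.2 CPM untreated, 103, 98.6 and 105 CPM after 8 h and 69.9, 72.5 and 69.7 CPM after 24 h. Its log2 fold change was 0.21 (SE 0.040, edgeR adjusted p = 0.00048) at 8 h and -0.33 (SE 0.040, edgeR adjusted p = 5.94e-06) at 24 h. MRPL21 had 38.5, 43.5 and 40.0 CPM untreated, 46.1, 49.0 and 47.8 CPM after 8 h and 30.8, 33.7 and 30.8 CPM after 24 h. Its changes on the log2 scale were 0.23 (SE 0.054, edgeR adjusted p = 0.00262) and -0.36 (SE 0.055, edgeR adjusted p = 5.22e-05). For each of the 6 genes every library at 8 h lay above and every library at 24 h below all untreated libraries. The 6 were picked by calls from these same libraries, so this order adds no support to the calls. MRPS5, the counterpart of a bacterial protein at the mRNA entrance, had 72.7, 79.1 and 76.0 CPM untreated, 93.7, 93.3 and 93.3 CPM after 8 h and 67.3, 69.2 and 69.3 CPM after 24 h. On the log2 scale it changed by 0.30 (SE 0.040, edgeR adjusted p = 1.53e-05) and -0.15 (SE 0.040, edgeR adjusted p = 0.00549). The changes in MRPL12 were 0.17 and -0.24, those in MRPL20 0.22 and -0.15, and those in MRPL3 0.13 and -0.22 on the log2 scale. Some of these calls hung on single libraries. When 1 library at a time was left out, the call of MRPL3 at 8 h held in 1 of 6 fits. Its log2 fold change ran from 0.068, without untreated replicate 1, to 0.19, without untreated replicate 2. The call of MRPL20 at 24 h did not hold without untreated replicate 3, where the value was -0.13 with an edgeR adjusted p of 0.0636. All 6 genes fell from 8 h to 24 h, by -0.35 (MRPL3) to -0.59 (MRPL21).

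The members were also grouped by place in the particle. Of all genes tested, 26.8% fell and 25.7% rose at 24 h, and 28.8% fell and 26.0% rose from 8 h to 24 h. Each place holds few members, and differences between places were not tested. Of the 8 proteins tested of the central protuberance, 3 fell at 24 h (MRPL40, MRPL48 and MRPL58) and 2 rose (MRPL18 and MRPL27), and the median log2 fold change was 0.020. From 8 h to 24 h, 5 of these 8 fell and 0 rose, with a median of -0.33. Of 8 at the tunnel exit, 3 fell (MRPL23, MRPL24 and MRPL39) and 2 rose (MRPL22 and MRPL45), with a median of -0.055. The stalk binds the elongation factors. Of the 4 proteins tested of the stalk and its base, 2 fell at 24 h (MRPL12 and MRPL54) and 0 rose, with a median of -0.16. The base protein MRPL11 had 74.5, 76.2 and 80.6 CPM untreated and 75.9, 76.4 and 75.8 CPM at 24 h, a log2 fold change of -0.020 (SE 0.041, edgeR adjusted p = 0.714), and MRPL10 one of -0.081 (SE 0.043, edgeR adjusted p = 0.128). The stalk protein MRPL12, which binds to MRPL10 in several copies, fell at 24 h from 47.4 ± 1.59 to 40.0 ± 1.10 CPM (mean ± SD of 3 libraries), a log2 fold change of -0.24 (SE 0.044, edgeR adjusted p = 0.000214). In the small subunit, 4 of 9 head proteins fell and 1 rose at 24 h, and 7 of 17 proteins of the body or platform fell and 2 rose. MRPS12, the counterpart of the bacterial protein of the decoding centre, fell from 43.4 ± 3.20 to 36.6 ± 2.05 CPM, a log2 fold change of -0.25 (SE 0.057, edgeR adjusted p = 0.00174).

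The MRPS18 family, 3 relatives of 1 bacterial protein that take different places in the ribosome, went 3 ways at 24 h. MRPS18A, which sits in the large subunit, had 35.9, 33.3 and 35.6 CPM untreated, 27.2, 26.8 and 29.9 CPM after 8 h and 22.9, 22.7 and 21.6 CPM after 24 h, a log2 fold change of -0.64 (SE 0.057, edgeR adjusted p = 1.77e-07) at 24 h. MRPS18C, which takes the place of the bacterial protein in the small subunit, had 20.9, 23.7 and 22.5 CPM untreated, 23.9, 23.7 and 22.9 CPM after 8 h and 23.2, 22.8 and 22.9 CPM after 24 h, a log2 fold change of 0.039 (SE 0.057, edgeR adjusted p = 0.587). MRPS18B, also of the small subunit, rose as described. The ranges of MRPS18A and MRPS18B at 24 h lay on opposite sides of their untreated ranges, and those of MRPS18C overlapped. MRPS36, the member that is no longer counted as a ribosomal protein, had log2 fold changes of -0.17 (SE 0.056, edgeR adjusted p = 0.0191) at 8 h and 0.070 (SE 0.055, edgeR adjusted p = 0.309) at 24 h.

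Levels can be compared between members only per length, and for this CPM were divided by the median length of a gene's coding transcripts. On this scale MRPL49 had 201 ± 4.81 CPM per kb in untreated cells, MRPL19 171 ± 7.15 and MRPL51 160.2 ± 8.10 (mean ± SD of 3 libraries), the 3 highest values. This order rests on the choice of length. The canonical transcript has 2026 bases in MRPL49 and 7825 in MRPL19, against median lengths of 518 and 718.5. With canonical lengths, MRPL49 came to 51.4 ± 1.23 CPM per kb and MRPL19 to 15.7 ± 0.656, and the highest values were those of MRPL41, with 129.9 ± 1.73, and MRPL37, with 128 ± 2.21. The last 2 differed by less than the sum of their SDs. Of the members tested, the 3 lowest were the same by either length. On median lengths they were MRPL38, with 2.37 ± 0.423 CPM per kb, MRPS24, with 3.24 ± 0.221, and MRPS17, with 4.66 ± 0.354.

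Several of the lowest values coincided with exons shared between genes. By the default of featureCounts, fragments on exons of more than 1 gene are counted for none of them. In the GENCODE v44 annotation, which is later than the one the authors used, 0.81% of the canonical transcript of MRPL53 was free of same-strand exons of another gene, here CCDC142. The counts of MRPL53 were 0, 9 and 6 without TEPA, 2, 0 and 1 after 8 h and 5, 6 and 5 after 24 h. No change in it could be read at this depth. The share free of overlap was 5.67% for MRPL38, 9.15% for MRPS24, which lies within the readthrough gene URGCP-MRPS24, 26.6% for MRPL46, 30.5% for MRPL12, 43.8% for MRPS28 and 47.9% for MRPL2. MRPS5 had 2.94% but a mean of 3221 counts. For MRPS25, the clearest rise at 8 h, the share was 56.65%, and the part of this overlap in its values was not tested. MRPS24 had 92, 98 and 89 counts untreated, and its log2 fold changes were 0.062 (SE 0.16, edgeR adjusted p = 0.777) at 8 h and 0.23 (SE 0.16, edgeR adjusted p = 0.228) at 24 h. With the members under 50% left out, an alternative chosen after seeing the data, 10 members rose and 19 fell at 8 h, and 12 rose and 33 fell at 24 h. MRPL and MRPS pseudogenes, 79 names, held 0.118% of the combined counts.

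**Figure D4:**
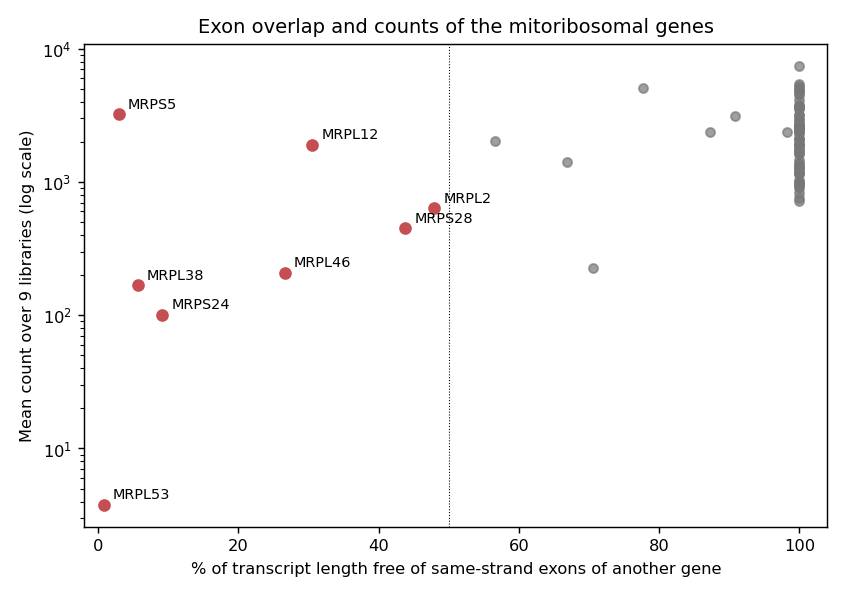
Mean count over the 9 libraries (vertical axis, log scale) against the percentage of the canonical transcript that is free of same-strand exons of another gene (horizontal axis) for the 78 members; the 8 members under 50% are named. MRPL53, MRPS24, MRPL38 and MRPL46 have both little free exon and low counts, and MRPS5 and MRPL12 have little free exon but counts like those of other members.

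Promoters of mitoribosomal genes are known for binding sites of GABP, an ETS factor also called NRF2, of NRF1 and of YY1. RefSeq promoter sequences of GRCh38.p14, from 250 bases before to 50 bases after the start site, were found for 69 of the 78 members. The ETS motif CCGGAAG stood in 29 of them (42.0%) on either strand, against 10.7% of the 27305 promoters of the table. The YY1 motif AANATGGCG stood in 18 (26.1%, against 3.37%), the NRF1 motif GCATGCGC in 6 (8.70%, against 3.27%), the E-box CACGTG of MYC in 6 (8.70%, against 7.43%) and the ATF4 motif TGATGNAA in 1 (1.45%, against 3.67%). No promoter of a member held matches that overlapped each other. Of the 29 with the ETS motif, 25 had it within 100 bases of the start site, and 16 of the 18 with the YY1 motif had it after the start. The ETS motif was found in 15 of the 30 promoters of members that fell at 24 h. It was in 5 of 12 of those that rose and in 8 of 26 of those not called. In the same order, the YY1 motif was in 8, 3 and 7 of them and the NRF1 motif in 1, 3 and 2. The E-box was in 2, 3 and 1 and the ATF4 motif in 0, 0 and 1. Differences between these groups were not tested.

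The 250 bases before the start site are shown for the 4 members with the lowest values at 24 h and for MRPS18B, which rose (GRCh38.p14, from RefSeq, 5′ to 3′ along the gene). MRPS18B does not stand for all members that rose. In the same part, MRPL27 and MRPL33 hold an ETS match 8 bases before the start. MRPL45 holds an E-box and no NRF1 motif, and MRPL34 none of the 5 motifs. Capitals mark the ETS motif in MRPL48, MRPL54 and MRPL58, where CTTCCGG is the motif on the other strand, and the NRF1 motif in MRPS18B. The upstream part of MRPL1 held none of the 5 motifs, and its YY1 match lies 16 bases after the start, where MRPS18B has one at 23 bases.
MRPL48, chr11:73787624-73787873, strand +: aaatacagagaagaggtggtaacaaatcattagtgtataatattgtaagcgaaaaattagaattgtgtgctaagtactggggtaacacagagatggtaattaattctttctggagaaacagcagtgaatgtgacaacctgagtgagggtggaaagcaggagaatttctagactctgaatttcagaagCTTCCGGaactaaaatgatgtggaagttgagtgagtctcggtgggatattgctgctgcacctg
MRPL1, chr4:77862580-77862829, strand +: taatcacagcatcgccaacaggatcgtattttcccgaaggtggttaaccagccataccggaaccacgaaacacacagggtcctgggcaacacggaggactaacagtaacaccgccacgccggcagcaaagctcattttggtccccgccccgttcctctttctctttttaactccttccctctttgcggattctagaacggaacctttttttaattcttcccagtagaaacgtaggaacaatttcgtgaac
MRPL54, chr19:3762432-3762681, strand +: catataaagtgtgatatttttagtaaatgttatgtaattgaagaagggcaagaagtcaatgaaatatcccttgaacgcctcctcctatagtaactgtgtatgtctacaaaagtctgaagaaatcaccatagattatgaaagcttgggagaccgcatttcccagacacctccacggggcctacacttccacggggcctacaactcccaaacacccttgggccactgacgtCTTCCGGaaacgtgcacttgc
MRPL58, chr17:75012420-75012669, strand +: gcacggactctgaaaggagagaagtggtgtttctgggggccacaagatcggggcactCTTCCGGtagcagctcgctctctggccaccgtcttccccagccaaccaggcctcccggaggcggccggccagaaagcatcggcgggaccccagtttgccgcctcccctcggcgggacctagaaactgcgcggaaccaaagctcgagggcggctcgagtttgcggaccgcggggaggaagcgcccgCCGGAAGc
MRPS18B, chr6:30617590-30617839, strand +: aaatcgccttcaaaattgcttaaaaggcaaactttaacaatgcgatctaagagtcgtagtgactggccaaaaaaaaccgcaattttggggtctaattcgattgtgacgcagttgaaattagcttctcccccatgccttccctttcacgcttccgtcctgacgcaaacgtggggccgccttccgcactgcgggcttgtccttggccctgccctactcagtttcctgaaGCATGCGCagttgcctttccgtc

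In MRPL54 and MRPL58 the last matches stand 21 and 8 bases before the start, and in MRPL48 the match stands 63 bases before it. MRPL58 holds another match 193 bases before the start. A match of letters is not evidence of binding, and the factors themselves were measured only as mRNA. GABPA, which binds the ETS motif, had a log2 fold change of -0.31 (SE 0.085, edgeR adjusted p = 0.00648) at 8 h and -0.089 (SE 0.083, edgeR adjusted p = 0.391) at 24 h, and its partner GABPB1 had -0.26 (SE 0.066, edgeR adjusted p = 0.00376) and -0.41 (SE 0.066, edgeR adjusted p = 7.64e-05). NRF1 had -0.036 (SE 0.060, edgeR adjusted p = 0.651) and -0.24 (SE 0.060, edgeR adjusted p = 0.00377), YY1 -0.00087 (SE 0.036, edgeR adjusted p = 0.986) and 0.014 (SE 0.036, edgeR adjusted p = 0.771), and MYC -0.10 (SE 0.049, edgeR adjusted p = 0.0975) and -0.22 (SE 0.049, edgeR adjusted p = 0.00112). Of the 14 regulators of mitochondrial gene expression in the list, 3 rose and 7 fell at 8 h, and 0 rose and 10 fell at 24 h. The falls were 50% and 71.4% of the list, against 24.5% and 26.8% of all genes tested. Rises were 21.4% and 0%, against 25.2% and 25.7%. The lowest at 24 h was DDIT3 with -1.20 (SE 0.093, edgeR adjusted p = 3.97e-08). The highest called at 8 h was ESRRA with 0.31 (SE 0.044, edgeR adjusted p = 3.23e-05), and the lowest PPARGC1A, the coactivator PGC-1alpha, with -0.78 (SE 0.16, edgeR adjusted p = 0.000902) on a level of 3.89 CPM in untreated cells.

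The mitochondrial ribosome has 5 proteins in the list whose genes carry other names. Of these, DAP3 and PTCD3 of the small subunit rose at 8 h, by 0.15 and 0.11 (edgeR adjusted p = 0.00273 and 0.0178) on the log2 scale, and only GADD45GIP1 of the large subunit fell at 24 h, with -0.39 (SE 0.043, edgeR adjusted p = 1.71e-06). Of all genes tested, 25.2% rose and 24.5% fell at 8 h, and 25.7% rose and 26.8% fell at 24 h. Of 26 factors that assemble the ribosome, 10 rose (38.5%) and 4 fell (15.4%) at 8 h, and 3 rose (11.5%) and 7 fell (26.9%) at 24 h. The GTPase MTG1 had the highest value at 8 h, 0.81 (SE 0.092, edgeR adjusted p = 2.94e-06), and the rRNA methyltransferase TFB1M the lowest, -0.42 (SE 0.070, edgeR adjusted p = 0.000151). At 24 h these were RBFA, a small subunit maturation factor, with 0.46 (SE 0.071, edgeR adjusted p = 5.78e-05), and ERAL1, an rRNA chaperone of the small subunit, with -0.51 (SE 0.043, edgeR adjusted p = 8.99e-08). Of 15 translation factors, 7 rose (46.7%) and 3 fell (20%) at 8 h and 5 rose (33.3%) and 3 fell (20%) at 24 h. Among them the release factor gene MTRF1 rose at both times, with 0.85 (SE 0.065, edgeR adjusted p = 6.37e-08) and 1.01 (SE 0.064, edgeR adjusted p = 4.45e-09), and TACO1, the translational activator of MT-CO1, fell at 24 h, with -0.51 (SE 0.045, edgeR adjusted p = 1.73e-07). At 8 h the lowest was MTRES1, with -0.40 (SE 0.088, edgeR adjusted p = 0.00147).

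Of 20 genes for mitochondrial aminoacyl-tRNA synthetases and the related amidotransferase, 6 rose (30%) and 5 fell (25%) at 8 h. At 24 h, 7 rose (35%) and 7 fell (35%). Of all genes tested, 25.2% rose and 24.5% fell at 8 h, and 25.7% rose and 26.8% fell at 24 h. AARS2, for alanine, fell at 24 h with -1.06 (SE 0.062, edgeR adjusted p = 1.72e-09), and EARS2, for glutamate, rose with 0.64 (SE 0.045, edgeR adjusted p = 1.57e-08). At 8 h the lowest was TARS2, for threonine, with -0.39 (SE 0.047, edgeR adjusted p = 5.73e-06), and the highest VARS2, for valine, with 1.60 (SE 0.31, edgeR adjusted p = 0.000504) on a level of 0.342 CPM in untreated cells. Of 20 genes for mitochondrial transcription and RNA handling, 6 rose (30%) and 2 fell (10%) at 8 h and 3 rose (15%) and 7 fell (35%) at 24 h. FASTKD1 was highest at 8 h, with 0.38 (SE 0.099, edgeR adjusted p = 0.00439), and TRMT10C, a subunit of the mitochondrial RNase P, lowest, with -0.34 (SE 0.069, edgeR adjusted p = 0.000715). At 24 h the ends were PRORP, the nuclease subunit of the same enzyme, with 0.56 (SE 0.087, edgeR adjusted p = 5.91e-05), and FASTK, with -0.38 (SE 0.041, edgeR adjusted p = 1.37e-06).

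The mitochondrial ribosome contains and translates RNAs made in the organelle. Of 13 mitochondrially encoded mRNAs, 12 rose (92.3%, against 25.2% of all genes tested) and 0 fell (against 24.5%) at 8 h. At 24 h, 0 rose (against 25.7%) and 9 fell (69.2%, against 26.8%). Their median log2 fold changes were 0.95 and -0.36. Their summed level was 18784 ± 5169 CPM without TEPA, 33220 ± 1949 CPM after 8 h and 14626 ± 445 CPM after 24 h (mean ± SD of 3 libraries). Among the untreated libraries replicate 1 held 14336 CPM and replicate 2 held 24455 CPM, so the untreated group overlapped with that at 24 h but not with that at 8 h. MT-ND6, the one mRNA from the light strand, had the highest value at 8 h, 1.66 (SE 0.24, edgeR adjusted p = 3.32e-05), and MT-CO3 the lowest at 24 h, -0.49 (SE 0.10, edgeR adjusted p = 0.000952). The large rRNA MT-RNR2 of the large subunit rose at 8 h, with 0.60 (SE 0.091, edgeR adjusted p = 4.91e-05), and the small rRNA MT-RNR1 of the small subunit fell at 24 h, with -0.32 (SE 0.078, edgeR adjusted p = 0.0026). The libraries were made by selection of polyadenylated RNA, which measures rRNA only in part.

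Further lists of other structural genes were set beside the members. For comparison, 25.2% of all genes tested rose and 24.5% fell at 8 h, and 25.7% rose and 26.8% fell at 24 h. Of 76 nuclear genes of respiratory chain subunits, 8 rose and 48 fell at 8 h, and 3 rose and 34 fell at 24 h. Their median log2 fold changes were -0.17 and -0.097. NDUFA13 rose most at 8 h, with 1.84 (SE 0.13, edgeR adjusted p = 3.07e-08), and COX5B fell most, with -0.42 (SE 0.042, edgeR adjusted p = 8.9e-07), while NDUFS1 and NDUFS7 were the ends among those called at 24 h, with 0.31 (SE 0.033, edgeR adjusted p = 1.23e-06) and -0.64 (SE 0.048, edgeR adjusted p = 2.66e-08). Of 84 cytosolic ribosomal protein genes tested, 19 rose (22.6%) and 6 fell (7.14%) at 8 h, with a median of 0.035. At 24 h, 4 rose (4.76%) and 23 fell (27.4%, near the 26.8% of all genes), with a median of -0.044. RPL36A rose most at 8 h, with 1.35 (SE 0.16, edgeR adjusted p = 4.13e-06), and RPS20 at 24 h, with 0.22 (SE 0.034, edgeR adjusted p = 5.26e-05), and the lowest were RPS27L at 8 h, with -0.29 (SE 0.048, edgeR adjusted p = 0.000123), and RPL10 at 24 h, with -0.79 (SE 0.042, edgeR adjusted p = 6.89e-10). Cytosolic ribosomal proteins have many processed pseudogenes and RPL36A shares a readthrough gene, so these single values are uncertain. From 8 h to 24 h, 28.8% of all genes tested fell. The share was 18.4% of the respiratory chain genes, 33.3% of the translation factors and 40% of the tRNA synthetase genes. It was 46.4% of the cytosolic ribosomal protein genes, 46.2% of the assembly factors, 50% of the RNA handling genes and 48.1% of the mitoribosomal genes. The differences between these lists were not tested.

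**Figure D5:**
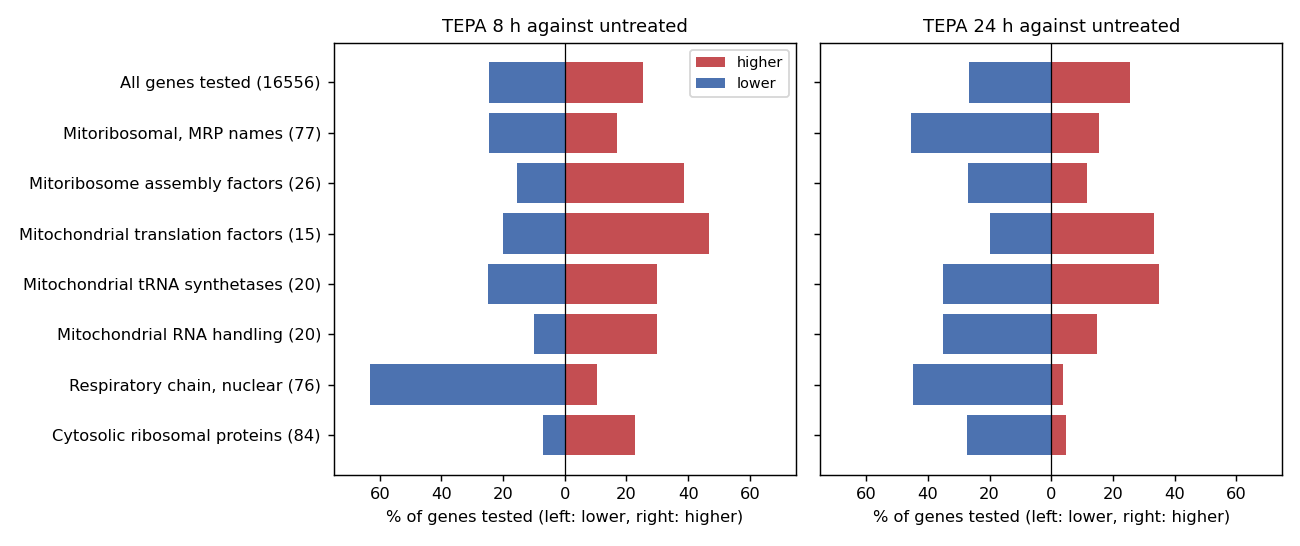
Percentage of the genes tested in each list that were higher (red, to the right) or lower (blue, to the left) than in untreated cells at 8 h and at 24 h, with the number tested in brackets; the top bar is all 16556 genes. The mitoribosomal genes show 16.9% higher and 24.7% lower at 8 h, and 15.6% higher and 45.5% lower at 24 h.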

How the data were processed

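Per the study's methods and its processing notes, the authors checked paired reads from stranded polyadenylated libraries with FastQC, mapped them to hg38 by HISAT2 and assigned them to gene names over exons by featureCounts, using strand and an Ensembl annotation of GRCh38. The deposited values are raw counts, not normalized, in 1 column per library, and 0 columns were left unused. From these counts, genes were kept by edgeR's filterByExpr with a minimum count of 10, TMM factors from 0.978 to 1.039 scaled the library sizes, and all 9 libraries were fitted in 1 quasi-likelihood model (edgeR 4.0.16, R 4.3.3). The biological coefficient of variation was 0.0481. Standard errors were derived from the test, as the size of the log2 fold change over the square root of its F value. Benjamini-Hochberg adjustment ran over 16556 genes, and the steps were tested on simulated data.

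The members and gene lists were chosen with earlier results of these data known. Members named with values were the 6 highest and 6 lowest called at each time with a mean of at least 100 counts, the 5 highest and 5 lowest between the times, those called in opposite directions, landmark proteins by role, the 3 highest and 3 lowest per length, and those that failed the filter. Any other member was named for its role or after its value was seen. For the other lists, the called ends were named. Overlaps, lengths and promoters came from GENCODE v44 and RefSeq of the same build. Alternatives were DESeq2 1.42.0, RLE and upper-quartile factors, mitochondrially encoded genes left out of library sizes, other filters, only the 2 groups compared, a replicate block, and each library left out in turn. With 3 libraries against 3, a permutation of a single value cannot give a two-sided p under 0.1. Counting error is the least error of any value. No 2 libraries of a group agreed within sampling noise.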

Additional observations from a re-analysis of the deposited data

Results flagged for a closer look

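Of the 36 members named by the rules given above and tested, 30 had a change at 24 h that differed from their change at 8 h. The test was edgeR's of 24 h against 8 h with Benjamini-Hochberg adjustment. In this comparison 28.8% of all genes tested fell and 26.0% rose, and of the 77 members tested 48.1% fell and 16.9% rose. The values are the log2 fold change at 24 h minus that at 8 h, and since many of these members were named for their size of change, their number says nothing about the rest.

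Among the members lowest at 24 h the difference was -1.21 for MRPL1, -1.004 for MRPL48, -0.75 for MRPL54, -0.75 for MRPL58, -0.51 for MRPL40, -0.56 for MRPS2, -0.43 for MRPL23, -0.32 for MRPS18A, -0.18 for MRPL15 and -0.14 for MRPL36, with adjusted p-values up to 0.0373. The 6 members with a rise at 8 h and a fall at 24 h had -0.35 for MRPL3, -0.41 for MRPL12, -0.37 for MRPL20, -0.59 for MRPL21, -0.53 for MRPL24 and -0.45 for MRPS5, with adjusted p-values up to 2.67e-05. The difference was also negative in MRPS25, MRPL38, MRPL4, MRPL19 and MRPS12, which had their highest mean at 8 h: -0.88 for MRPS25, -0.75 for MRPL38, -0.35 for MRPL4, -0.20 for MRPL19 and -0.36 for MRPS12, with adjusted p-values up to 0.00649. MRPS5, MRPL38 and MRPL12 share most of their exon with other genes.

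Positive differences were found for members that were highest at 24 h, with 0.40 for MRPL33, 0.34 for MRPL45, 0.33 for MRPS18B, 0.22 for MRPL49, 0.17 for MRPL34 and 0.19 for MRPS31, and for members that were lowest at 8 h and near the untreated level at 24 h, with 0.28 for MRPS6, 0.27 for MRPS14 and 0.11 for MRPL51. Their adjusted p-values reached 0.0378. Leaving out single libraries ended the call for MRPL36 in 5 of 6 fits (from -0.18, without TEPA 24 h replicate 2, to -0.098, without TEPA 24 h replicate 3), for MRPL51 in 6 of 6 (from 0.0995 to 0.12) and for MRPS31 in 3 of 6 (lowest 0.17, without TEPA 8 h replicate 1).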

How the results depend on the processing

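The 36 members named by rule and tested had 108 changes, with 1512 alternative values. Of these values, 1429 kept direction and side of the threshold, 51 lost the call, 7 gained one and 25 took the other sign. Of the 77 called changes, 0 turned direction. The counts of members that changed moved by less than 1.5 times, apart from those that also asked for a log2 fold change beyond 0.5, which were 2 higher and 0 lower at 8 h, 0 and 8 at 24 h, and 0 and 10 between the times. Leaving out each library in turn gave 10 to 15 higher and 13 to 22 lower at 8 h, 9 to 12 and 31 to 37 at 24 h, and 10 to 12 and 34 to 37 between the times. The median between the times, -0.119, was -0.106 with DESeq2, -0.094 with only the 2 groups compared and from -0.126 to -0.102 without single libraries. The medians without single libraries were -0.013 to 0.012 at 8 h and -0.113 to -0.070 at 24 h. Causes were not tested.

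The uncalled changes that took the other sign were MRPL10 at 8 h (0.012 with upper-quartile factors, 0.00071 with 10 counts in every library, -0.034 to 0.015), MRPS24 (-0.047 to 0.14) and MRPS31 (-0.018 to 0.091) at 8 h, and at 24 h MRPL11 (0.0065 with upper-quartile factors, -0.045 to 0.011), MRPL38 (-0.037 to 0.21), MRPL4 (-0.00026 with no filter, -0.035 to 0.053), MRPL51 (0.010 with upper-quartile factors, -0.057 to 0.014), MRPS18C (-0.0079 to 0.082) and MRPS25 (-0.14 to 0.045). Ranges are those of the fits without 1 library. Between the times they were MRPL27 (0.0044 with RLE and 0.0046 with upper-quartile factors, 0.0061 with DESeq2, 0.0013 with no filter, 9.7e-06 with 10 counts in every library, 0.018 with only the 2 groups, -0.024 to 0.018) and MRPS17 (-0.010 to 0.11). Calls at 8 h that were lost without single libraries were MRPL3, MRPL40 and MRPL58 (5 of 6 fits each), MRPS2 (4), MRPL51 (3) and MRPL45 (2), and at 24 h MRPL20 (1).

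Deviations of same-numbered libraries correlated at -0.080 to 0.038 over 9 pairs, against -0.054 to 0.073 over 18 other pairs. These values cannot show whether same-numbered libraries shared a culture or a day. With the replicate block, 13 members rose and 18 fell at 8 h, 11 and 33 at 24 h, and 13 and 36 between the times, and the calls of MRPL40 at 8 h (adjusted p = 0.0532) and MRPL36 between the times (adjusted p = 0.0522) were lost.

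Depth limited MRPL53, MRPS24 and MRPL38 most. Exon overlap was read from a later annotation than the authors used, a group of 3 libraries cannot separate cultures from preparations, and mRNA levels say nothing of protein or of assembled ribosomes.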

Other observations

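Many mitoribosomal genes start back to back with another gene. A protein-coding neighbour on the other strand started within 1000 bases upstream for 26 of the 78 members (33.3%), against 1904 of 20020 protein-coding genes of the annotation (9.51%). MRPL46 and MRPS11 are each other's neighbour. In the pairs below, some partners moved with the member and others did not. MRPL54 fell at 24 h by -1.09 on the log2 scale, and APBA3, 990 bases away, had 0.23 (SE 0.052, edgeR adjusted p = 0.00152). MRPL21, with 0.23 at 8 h and -0.36 at 24 h, starts 59 bases from IGHMBP2, a helicase gene that had 0.52 (SE 0.050, edgeR adjusted p = 5.62e-07) and 0.084 (SE 0.050, edgeR adjusted p = 0.176). MRPL43 starts 46 bases from TWNK, the helicase of mitochondrial DNA replication. TWNK had 0.32 (SE 0.066, edgeR adjusted p = 0.000864) at 8 h and 0.33 (SE 0.065, edgeR adjusted p = 0.000473) at 24 h, where MRPL43 had -0.0097 (SE 0.038, edgeR adjusted p = 0.85) and 0.21 (SE 0.037, edgeR adjusted p = 0.000162). MRPS12 starts 181 bases from SARS2, the mitochondrial seryl-tRNA synthetase gene. SARS2 rose at 24 h with 0.39 (SE 0.12, edgeR adjusted p = 0.0135), on 3.28 CPM in untreated cells, and MRPS12 fell with -0.25. MRPL40 and HIRA, 812 bases apart, both fell at 24 h, with -0.68 and -0.18 (SE 0.061, edgeR adjusted p = 0.0218). MRPS18B and PPP1R10, 597 bases apart, both rose at 24 h, with 0.37 and 0.15 (SE 0.043, edgeR adjusted p = 0.00963). MRPL27 starts 45 bases from EME1 and rose at both times. EME1 had 0.20 (SE 0.059, edgeR adjusted p = 0.00907) at 8 h and 0.041 (SE 0.059, edgeR adjusted p = 0.589) at 24 h. These pairs were chosen after their values were seen.

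CCDC142, whose exons cover MRPL53 in the later annotation, rose at both times, by 1.11 (SE 0.056, edgeR adjusted p = 1.1e-09) and 0.89 (SE 0.056, edgeR adjusted p = 4.58e-09) on the log2 scale, from 22.8 CPM in untreated cells to 49.4 and 42.1 CPM. The part of the overlap in the low counts of MRPL53 was not tested.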
